A study of Mus musculus with 36 samples.

Results

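Middle islands inside late territory were studied: stretches of the mouse genome in the middle replication timing (RT) state with late-replicating DNA touching both ends. They were chosen by the state calls alone, map by map: an autosomal middle domain was kept when the domains on its left and right were both late, and when no more than 50% of its bases were unknown in the mm9 assembly. This gave 348 islands in CH12 shLacZ cells, 255 in wild-type (WT) primary B cells and 204 in another map named for mouse embryonic fibroblasts (MEFs), 807 of the 7437 domains in the 3 maps. CH12 is a mouse B lymphoma line, grown with IL-4, CD40 and TGF beta stimulation and infected here with a short hairpin RNA against LacZ, which targets no mouse gene. The primary cells were splenic B cells of Rif1+/+ (WT) mice, activated in culture. Ages are not given in the labels, and CH12 is a single line. The series holds 36 Repli-seq libraries in 7 groups, and each of the 2 B cell maps used here rests on 4 of them, an early and a late S phase fraction in 2 replicates. The labels tie the MEF map to no library of the series, so its cells are described only by that name. Since the domains come from merged replicates, each condition has a single map, which gives no replicate error and allows no test of a difference between maps. All intervals below are 95% intervals that cover counting error only, and neighbouring genes are not independent of each other.

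Mammalian chromosomes replicate in large domains, from gene-rich and active chromatin early in S phase to gene-poor, often lamina-associated chromatin late. Between an early and a late domain the RT profile passes through intermediate values, so a stretch of middle RT beside an early domain is often simply the slope from one to the other. A middle stretch with late DNA on both sides has no early neighbour to slope from. It appears instead as a local rise within late territory. Such a rise can arise where some origins fire before those around them or fire early in only part of the cells. The maps hold only states, so how the islands arise was not tested.

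The sequence just before a gene start is where islands and their late surroundings can be compared base by base. CpG islands, short stretches rich in the dinucleotide CG, mark the promoters of most housekeeping genes, whereas promoters of tissue-restricted genes such as chemosensory receptors have few CG. The 4 stretches that follow lie upstream of genes that start in an island in each of the 3 maps, and the last 2 lie upstream of receptor genes in late domains next to such an island. They were picked after their values were seen, as illustrations. Each gives the 250 bases before the gene start in mm9, read 5′ to 3′ on the strand of the gene, with every CG in capitals. Rps7 encodes a protein of the small ribosomal subunit and its stretch is chr12:29320819-29321068 on the minus strand. Mcm5, a subunit of the MCM replicative helicase, has its stretch at chr8:77633177-77633426 on the plus strand. Riok2, a kinase of ribosome maturation, lies in the same island as the pheromone receptor gene Vmn2r90, with its stretch at chr17:17511046-17511295 on the plus strand. Diap3, an actin-nucleating formin, was the only gene start of its shared island, with its stretch at chr14:87541032-87541281 on the minus strand. The vomeronasal receptor genes Vmn2r92 (chr17:18288644-18288893, plus strand) and Vmn2r94 (chr17:18414531-18414780, minus strand) started in late DNA beside the island of Riok2 in every map.
Rps7: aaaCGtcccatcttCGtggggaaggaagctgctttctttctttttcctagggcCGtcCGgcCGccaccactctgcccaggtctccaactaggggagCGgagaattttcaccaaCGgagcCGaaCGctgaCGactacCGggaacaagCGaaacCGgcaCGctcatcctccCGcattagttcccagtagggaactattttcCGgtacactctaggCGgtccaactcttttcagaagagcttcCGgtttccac
Mcm5: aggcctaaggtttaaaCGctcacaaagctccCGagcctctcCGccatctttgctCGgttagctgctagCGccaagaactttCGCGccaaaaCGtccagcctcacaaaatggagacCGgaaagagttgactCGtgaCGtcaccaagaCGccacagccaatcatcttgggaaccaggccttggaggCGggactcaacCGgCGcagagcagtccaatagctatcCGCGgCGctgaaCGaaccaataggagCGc
Riok2: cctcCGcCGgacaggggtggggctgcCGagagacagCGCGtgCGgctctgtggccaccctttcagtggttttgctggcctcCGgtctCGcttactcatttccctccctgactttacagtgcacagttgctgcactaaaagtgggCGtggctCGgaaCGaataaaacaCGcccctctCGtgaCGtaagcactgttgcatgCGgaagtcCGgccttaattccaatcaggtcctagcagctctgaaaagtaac
Diap3: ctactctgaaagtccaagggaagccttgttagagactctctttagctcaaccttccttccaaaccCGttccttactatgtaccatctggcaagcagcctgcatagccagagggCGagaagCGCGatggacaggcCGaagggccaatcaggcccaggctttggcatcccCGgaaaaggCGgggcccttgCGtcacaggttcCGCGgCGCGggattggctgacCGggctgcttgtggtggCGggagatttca
Vmn2r92: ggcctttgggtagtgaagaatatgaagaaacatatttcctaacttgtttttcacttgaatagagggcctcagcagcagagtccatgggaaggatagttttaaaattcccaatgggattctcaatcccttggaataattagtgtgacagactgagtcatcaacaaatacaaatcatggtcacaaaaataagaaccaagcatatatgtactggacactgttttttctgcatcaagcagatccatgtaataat
Vmn2r94: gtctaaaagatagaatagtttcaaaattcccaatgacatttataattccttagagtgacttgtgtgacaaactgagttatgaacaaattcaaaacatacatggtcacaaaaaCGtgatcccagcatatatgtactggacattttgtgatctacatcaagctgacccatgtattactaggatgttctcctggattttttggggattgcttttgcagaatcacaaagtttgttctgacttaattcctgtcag

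The first 4 stretches held 18, 20, 16 and 14 CG, and their observed number of CG over the number expected from their C and G content was 0.949, 1.00, 0.784 and 0.649. The stretch of Vmn2r92 held 0 CG and that of Vmn2r94 held 1. Both strands carry the same CG, since CG reads CG on either strand. At least 1 CG was present upstream of 92.6% of all 21418 autosomal protein-coding genes, so its presence alone separates little. A stretch was called CpG-rich at an observed over expected value of at least 0.6, which 42.7% of all genes reached and 0.696% of the 1436 olfactory and vomeronasal receptor genes. Within the shared islands both kinds of upstream stretch were present, and Vmn2r90 held 0 CG upstream while lying in the same island as Riok2.

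Islands made up 28.9% (interval 26.4 to 31.5) of the autosomal middle domains in CH12, 20.5% (18.3 to 22.8) in primary B cells and 20% (17.7 to 22.6) in the MEF map. They held 33.0%, 23.1% and 17.1% of all autosomal middle bases, or 201, 176 and 152 Mb. The 3 maps differed in how much of the autosomes was late, with 1203 Mb in CH12, 920 Mb in primary B cells and 705 Mb in the MEF map. Set against that territory the number of islands was alike, at 2.89, 2.77 and 2.89 islands per 10 Mb of late DNA, with intervals of 2.60 to 3.21, 2.44 to 3.13 and 2.51 to 3.32. CH12 therefore had the most islands and also the most late DNA for them to lie in. Most late domains took part, since 514 of 690 autosomal late domains in CH12, 405 of 608 in primary B cells and 304 of 461 in the MEF map touched at least 1 island.

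The median island was 500 kb long in CH12 (interval 460 to 540), 560 kb in primary B cells (520 to 680) and 600 kb in the MEF map (520 to 740). Islands ranged from 80 kb in each map to 2920 kb in CH12, 2460 kb in primary B cells and 3040 kb in the MEF map. Because the B cell profiles had been smoothed over 300 kb, the 80 islands under 300 kb in CH12 and the 51 in primary B cells were at or below the resolution of the signal. The MEF map had 42 islands under 300 kb, and its smoothing is not given in the sources used here. In CH12 10.6% of islands were over 1000 kb, against 19.6% in primary B cells and 24.0% in the MEF map. The slope-type middle domains between early and late had lower medians, of 300 kb, 380 kb and 540 kb. In the MEF map the value of 540 kb lay within the interval of the island median. Late domains touching an island were typically longer than islands in both B cell maps. Their medians were 1140 kb (CH12, interval 980 to 1320) and 960 kb (primary B cells, 800 to 1140). Both late neighbours were longer than the island in 203 of 348 cases in CH12, 117 of 255 in primary B cells and 92 of 204 in the MEF map. In the remaining cases at least 1 neighbour, the shorter one, was no longer than the island.

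**Figure D1:**
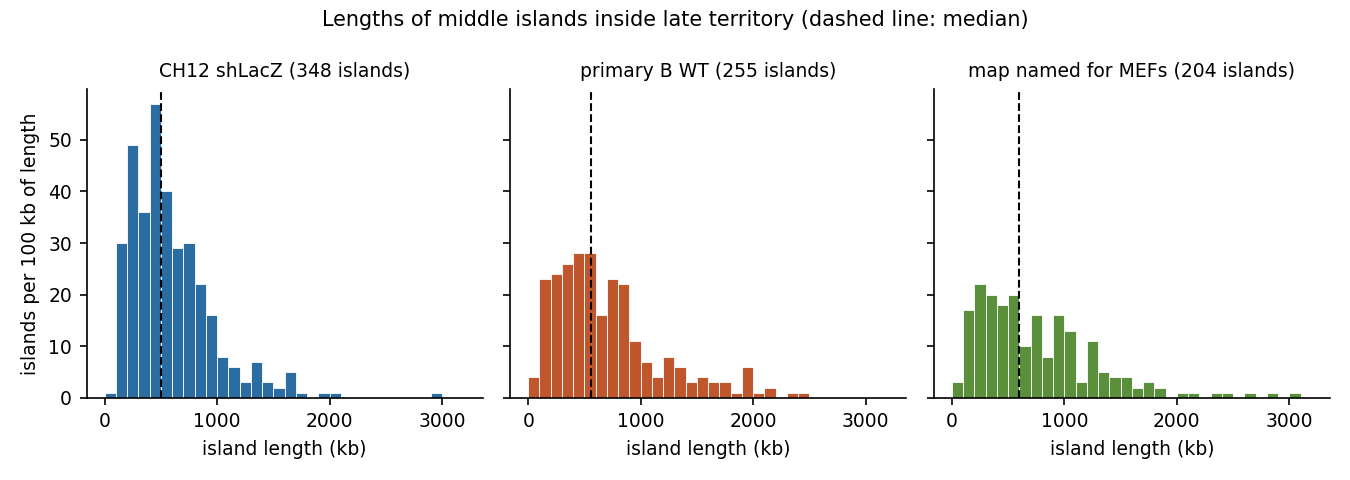
Number of islands (vertical axis) by island length in kb (horizontal axis, 100 kb steps) in each of the 3 maps, with the median as a dashed line. Islands of the CH12 map were bunched around the median of 500 kb, whereas primary B cells and the MEF map had a longer tail, with 19.6% and 24.0% of islands over 1000 kb.

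The islands often followed each other within late territory. By the rule at least 1 late domain lay between an island and early DNA, so the distance to early DNA is partly set by the choice. Neither the distance nor the chains are set beside other late DNA here. The nearest early domain was a median of 2040 kb away in CH12, 1520 kb in primary B cells and 2540 kb in the MEF map. In CH12 197 of 348 islands (56.6%) belonged to chains of 3 or more in which only 1 late domain separated each island from the next. The same held for 34.5% of islands in primary B cells and 55.4% in the MEF map. The longest chain of CH12 ran over 12 islands and 23.0 Mb of chromosome 13 (chr13:67000001-90020000). The longest of primary B cells had 6 islands (chr14:34880001-44240000), and in the MEF map 7 (chr16:62660001-78720000). Chromosome 13 also had the highest rate of islands in CH12, 6.04 per 10 Mb of late DNA against 2.96 ± 1.03 (SD over the 19 autosomes), and in the MEF map, with 5.11 against 2.80 ± 1.21. The highest rate of primary B cells was on chromosome 14, with 4.10 against 2.85 ± 0.652.

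Islands were gene-bearing places. A protein-coding gene started in 312 of 348 islands in CH12 (89.7%, interval 86.0 to 92.4), in 236 of 255 in primary B cells (92.5%, 88.7 to 95.2) and in 176 of 204 in the MEF map (86.3%, 80.9 to 90.3). Late domains, which were longer, held a start in 84.3%, 77.8% and 74.8% of cases. The median island held 4, 4 and 3 such starts. The islands with none, 36 in CH12, 19 in primary B cells and 28 in the MEF map, were short, with medians of 230, 300 and 240 kb. A few islands lay wholly inside 1 long gene: 7 in CH12, 4 in primary B cells and 5 in the MEF map. Of the 7, 2 lay in an entry named Fgfr2 that is far longer in this annotation than the gene is otherwise known to be, so their place within a gene is uncertain. Fhit, the gene at a well-known common fragile site, contained an island of 340 kb in CH12 and one of 760 kb in primary B cells. Lrrc4c, Sgcd and Nrxn3, all very long genes, each contained an island of the MEF map.

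Per length, islands carried more gene starts than the late DNA on either side. CH12 islands had 9.97 protein-coding starts per Mb (interval 9.54 to 10.4) and the late domains touching them 3.49 (3.37 to 3.61). The densities were 8.41 (7.99 to 8.85) and 2.53 (2.41 to 2.66) in primary B cells, and in the MEF map 6.74 (6.34 to 7.17) and 2.52 (2.38 to 2.67). The direction held on 19, 19 and 17 of the 19 autosomes, and 75.3%, 78% and 71.1% of islands were denser than their own pair of late neighbours. Against windows of the island's own length on each side, which are nearer and may reach past the late neighbour, the ratio fell from 2.86 to 1.73 in CH12, from 3.32 to 1.65 in primary B cells and from 2.67 to 1.62 in the MEF map. Island density came close to that of middle domains on the early to late slope, which was 8.91, 7.60 and 6.71 per Mb, and was well under that of early domains, 18.9, 17.7 and 16.1. The choice of islands did not use genes, but gene density had helped to tell early from late states. The step from late to early is therefore not a finding. The direction from flanking late DNA to islands rests on the same naming and is not independent of gene density. The same holds for GC content and CpG-rich stretches as far as they go with gene density.

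**Figure D2:**
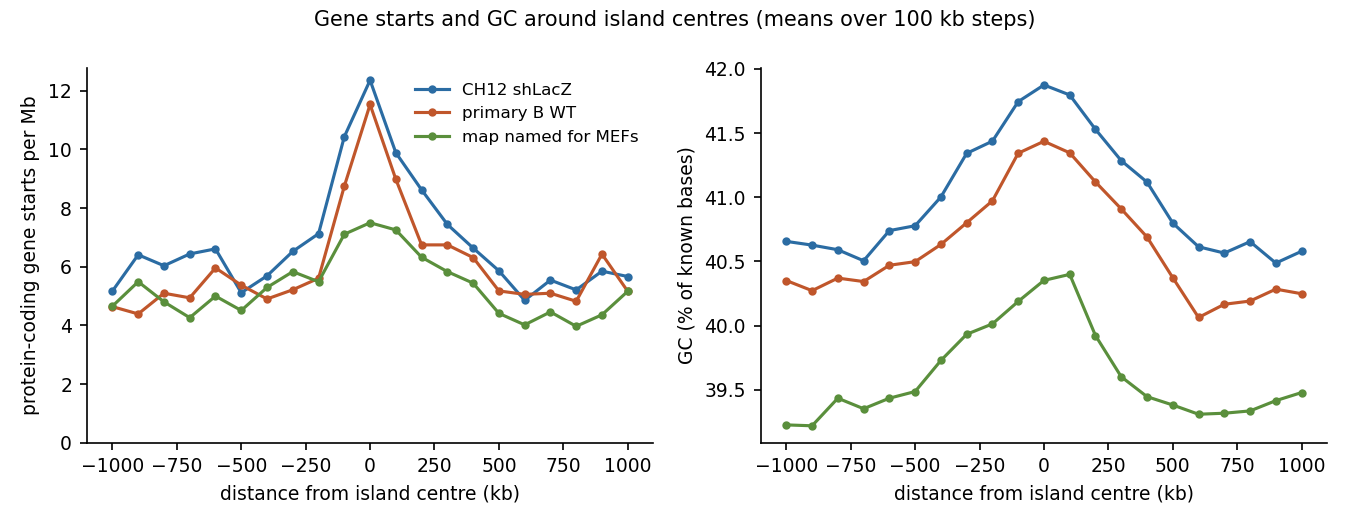
Protein-coding gene starts per Mb (left) and GC as a percentage of known bases (right; axis not from 0) against distance from the island centre in kb, averaged over all islands of each map in 100 kb steps. Gene starts peaked at the centre, at 12.4 per Mb in CH12, 11.5 in primary B cells and 7.5 in the MEF map, and lay between 4.64 and 5.67 per Mb at 1000 kb on either side.

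GC content followed the same shape on a small scale. Islands had a GC content of 42.1% in CH12, 41.5% in primary B cells and 40.2% in the MEF map, and the late domains touching them 39.3%, 38.8% and 38.1%. An island exceeded the mean of its neighbours by 1.28 ± 1.64 percentage points (SD over 348 islands), 1.18 ± 1.37 (255) and 1.03 ± 1.40 (204). The spread among islands was thus larger than the average shift. GC was above both neighbours in 197, 154 and 122 islands and below both in 47, 19 and 29.

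The genes of islands also differed in kind from those of the surrounding late DNA. In CH12 48.5% of genes starting in islands had a CpG-rich upstream stretch (interval 46.3 to 50.7), against 23.1% (21.7 to 24.6) in the late domains touching them. The shares were 43.1% (40.6 to 45.6) and 20.4% (18.5 to 22.5) in primary B cells, and 35.6% (32.7 to 38.6) and 16.7% (14.7 to 19) in the MEF map. In both B cell maps the island share lay above that of genes on the early to late slope, 41.6% (39.8 to 43.5) and 35.1% (33.3 to 36.8), with intervals that did not meet, whereas in the MEF map the intervals overlapped, at 34.1% (32.4 to 35.8) on the slope. Early domains reached 51.4%, 51.1% and 52.1%. Olfactory and vomeronasal receptor genes made up 4.54%, 5.73% and 4.59% of the starts in islands and 18.1%, 11.0% and 23.3% of those in the flanking late domains. The median gene starting in an island was 21.7, 20.7 and 21.4 kb long, against 10.4, 11.4 and 7.67 kb in the flanking late domains. Long intergenic non-coding RNA genes were also denser in islands, at 0.636, 0.505 and 0.401 starts per Mb against 0.168, 0.102 and 0.0891. Against genes on the early to late slope these contrasts were smaller. The median gene there was 20.6, 17.9 and 17.4 kb long, and long intergenic non-coding RNA genes had 0.531, 0.456 and 0.355 starts per Mb. Receptor genes made up 5.44% of starts on the slope in CH12, near the share in islands, but 13.6% in primary B cells and 11.0% in the MEF map.

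**Figure D3:**
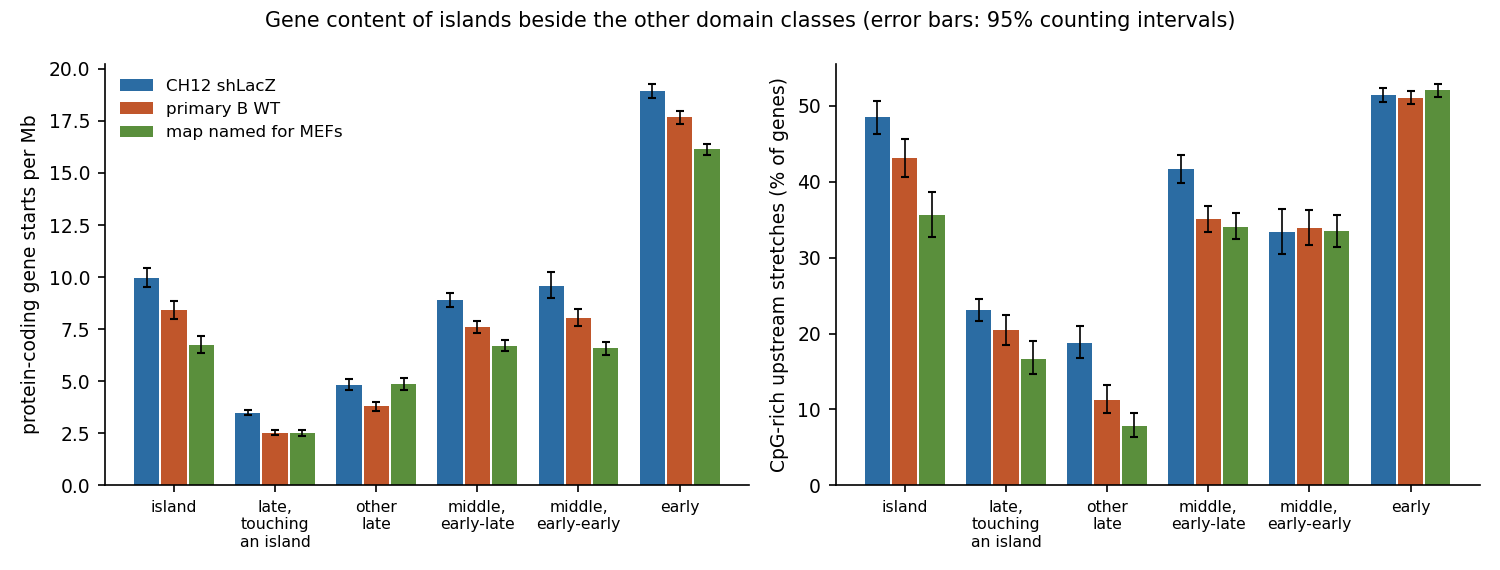
Protein-coding gene starts per Mb (left) and share of genes with a CpG-rich upstream stretch (right) in islands, late domains touching an island, other late domains, middle domains between early and late, middle domains between early domains, and early domains, with 95% Poisson (left) and Wilson (right) intervals as error bars. In each map islands stood above both kinds of late domain on either measure and below early domains.

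The density of annotated microRNA genes was highest in islands of the MEF map, through 1 island. The MEF map had 189 microRNA starts in islands (1.24 per Mb), while CH12 islands had 0.601 per Mb and those of primary B cells 0.493. Of the 189, 119 fell in a single island, chr2:9360001-10640000, which holds Sfmbt2, a Polycomb-related gene whose intron carries a large rodent microRNA cluster, together with Gata3 and Taf3. Without that island the MEF density was 0.464 per Mb, close to the other maps. A further 23 fell in the island at chr7:68640001-69620000 with the imprinted genes Ndn, Magel2, Mkrn3 and Peg12.

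Gene families showed which loci the islands captured, and each share is read against all 21418 genes, of which 9.37% started in islands in CH12, 6.92% in primary B cells and 4.79% in the MEF map. Zinc finger genes of the Zfp series, mostly transcriptional repressors in clusters, stood above that level in every map: 73 of 362 (20.2%, interval 16.4 to 24.6) in CH12, 38 (10.5%, 7.74 to 14.1) in primary B cells and 46 (12.7%, 9.66 to 16.5) in the MEF map. Of the 83 that started in an island of any map, 19 did so in all 3. Of all 21418 genes, 260 started in an island of every map, and their number in an island of any map is not given here. By annotation entries, some of which repeat a gene, the 73 of CH12 lay in 27 islands, the 38 of primary B cells in 13 and the 46 of the MEF map in 6. The island richest in them held 23, 16 and 23 entries. Without it the shares were 14.7% (interval 11.4 to 18.9), 6.36% (4.24 to 9.44) and 6.78% (4.56 to 9.97), so the interval stayed above the share of all genes in CH12 and included it in primary B cells and the MEF map.

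Among chemosensory receptors the share in islands differed by family, while late genes were common in both. Olfactory receptor genes were seldom in islands, with 53 of 1106 (4.79%) in CH12, 12 (1.08%) in primary B cells and 26 (2.35%) in the MEF map, while 794, 572 and 702 of them were late. Vomeronasal receptor genes, which detect pheromones, started in islands in 38 of 330 cases (11.5%) in CH12, 73 (22.1%, interval 18 to 26.9) in primary B cells and 21 (6.36%) in the MEF map. The 73 of primary B cells lay in 12 islands, mainly on chromosomes 7 and 6. Only unique alignments had been kept, and how this bears on clusters of similar gene copies was not tested.

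Genes of protein synthesis were present in islands despite their use in every cell. Among 75 ribosomal protein genes, 8 started in islands in CH12 (among them Rpl15, Rpl34, Rpl37, Rps6, Rps7 and Rps15a), 4 in primary B cells (Rpl15, Rpl22l1, Rpl37a and Rps7) and 4 in the MEF map (Rpl7, Rpl15, Rps7 and Rps20). Rps7 and Rpl15 were in an island in all 3 maps. These shares, 10.7%, 5.33% and 5.33%, were near those of all genes. Of 129 translation initiation, proteasome and tRNA synthetase entries, 12, 5 and 0 started in islands, with Psmd14 counted more than once among the 12. The shares were 9.30%, 3.88% and 0%, against 9.37%, 6.92% and 4.79% of all genes. In CH12 and primary B cells the interval included the share of all genes, and 0 of 129 in the MEF map had an upper limit of 2.89%.

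Small numbers of lineage genes started in islands. None of 62 B cell and lymphocyte genes started in an island of primary B cells (0%, upper limit 5.83%), where 60 were early. In CH12 5 did (8.06%, interval 3.49 to 17.5, with all genes at 9.37%): Ebf1, a B cell lineage transcription factor, Fcer2a (CD23), Fas, Il7r and Lef1. Of these, Ebf1, Fas, Fcer2a and Lef1 were early in primary B cells, and Il7r lay in a middle domain between early domains. Cd38, Lyn and Satb1 were among the 4 (6.45%, 2.54 to 15.4) that started in islands of the MEF map, and these were early in primary B cells. Of 84 fibroblast and mesenchymal genes 8 (9.52%, interval 4.90 to 17.7) started in islands of primary B cells, and 4 (4.76%, 1.87 to 11.6) in CH12 and in the MEF map alike. Of the 8, the collagen gene Col1a2, the fibronectin gene Fn1 and the BMP antagonist gene Grem1 were late in CH12 and early in the MEF map. The other 5, Col12a1, Igf1, Lgr5, Msx1 and Tbx15, lay in middle domains touching early DNA in the MEF map, and Col12a1 and Lgr5 were in islands in CH12 too. Each of these intervals apart from that of primary B cells for the B cell list included the share of all genes.

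Long synaptic, channel and cell adhesion genes were more often in islands of the MEF map than all genes were. Of 142, 20 (14.1%, interval 9.31 to 20.8) started in its islands. The B cell maps had 3 (2.11%, CH12) and 4 (2.82%, primary B), with 125 and 112 of the 142 late. In the MEF map most were late too, with 86 late, 34 in other middle domains and 2 early. The 20 were spread over 19 islands and included Robo1 and Robo2, axon guidance receptors, Erbb4, a receptor tyrosine kinase, and the catenin gene Ctnna2. Robo1, Robo2, Erbb4 and Ctnna2 were late in both B cell maps.

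**Figure D4:**
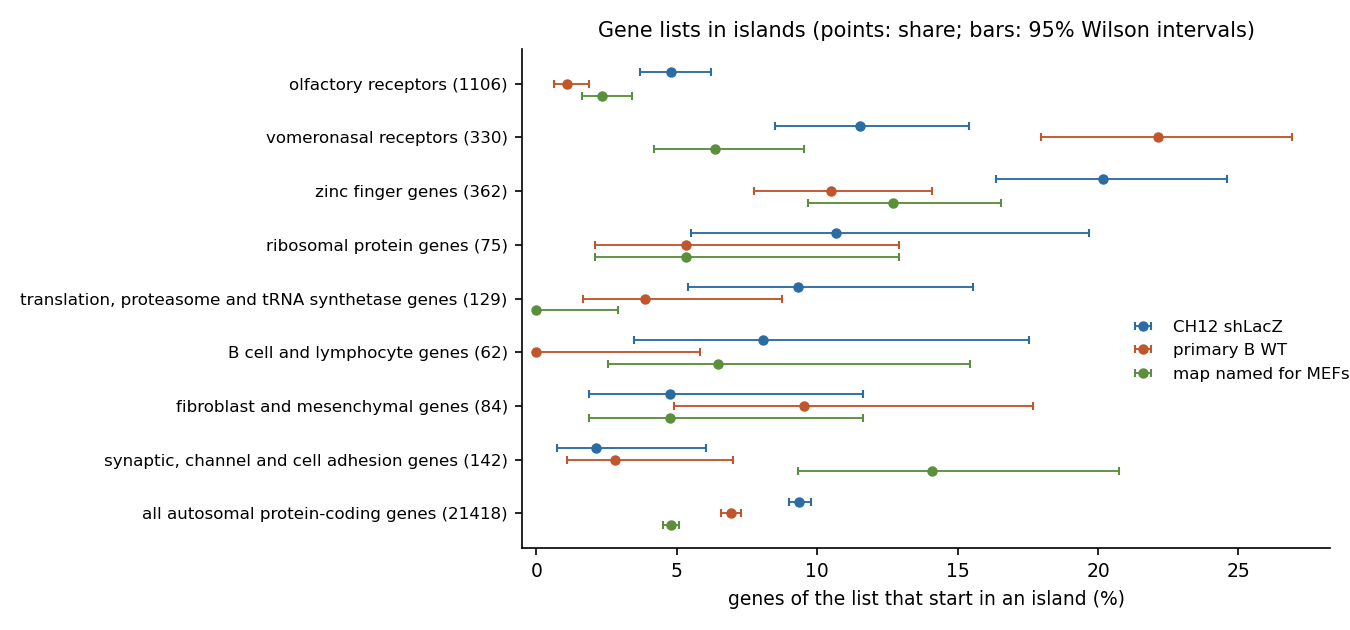
Share of each gene list that started in an island (horizontal axis, %) in the 3 maps, with 95% Wilson intervals and, in parentheses, the number of annotated genes. Intervals lay wholly above the share of all genes for zinc finger genes in each map (in primary B cells and the MEF map through 1 island each), for vomeronasal receptors in primary B cells and for synaptic genes in the MEF map.

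The place of each island was then looked up in the other 2 maps, which the choice of islands did not use. Of the 348 CH12 islands 245 (70.4%, interval 65.4 to 75) were mostly middle in primary B cells, 60 (17.2%) mostly early and 43 (12.4%) mostly late. Among all autosomal middle domains of CH12 these shares were 72.1%, 22.6% and 5.31%. Looked up in the MEF map, 207 (59.5%) were mostly middle, 83 (23.9%) early and 58 (16.7%) late, against 58.0%, 34.5% and 7.47% of all middle domains. CH12 islands thus kept the middle state about as often as any middle domain, were late more often and early less often. All middle domains include those that border early DNA, from which islands are by choice remote.

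The late share was highest for lookups in CH12, the map with most late DNA. Of 255 islands of primary B cells 116 (45.5%) were mostly middle in CH12, 137 (53.7%, interval 47.6 to 59.7) late and 2 (0.784%) early, against 58.5%, 36.4% and 5.06% of all middle domains of that map. Looked up in the MEF map, 168 (65.9%) were middle, 50 (19.6%) late and 37 (14.5%) early, against 66.1%, 10.1% and 23.8%. This late share was close to the 16.7% of CH12 islands in the same map. Of 204 islands of the MEF map 49 (24.0%) were middle in CH12, 149 (73.0%, 66.6 to 78.7) late and 6 (2.94%) early, against 40.4%, 52.7% and 6.86%. Of the same 204, 95 (46.6%) were middle, 98 (48.0%) late and 11 (5.39%) early in primary B cells, against 60.6%, 27.8% and 11.6%. In all 6 directions the late share of islands exceeded that of all middle domains and the early share was below it. The surrounding late DNA was late elsewhere far more often than the islands, from 55.7% of its bases for CH12 in the MEF map to 96.2% for primary B cells in CH12.

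**Figure D5:**
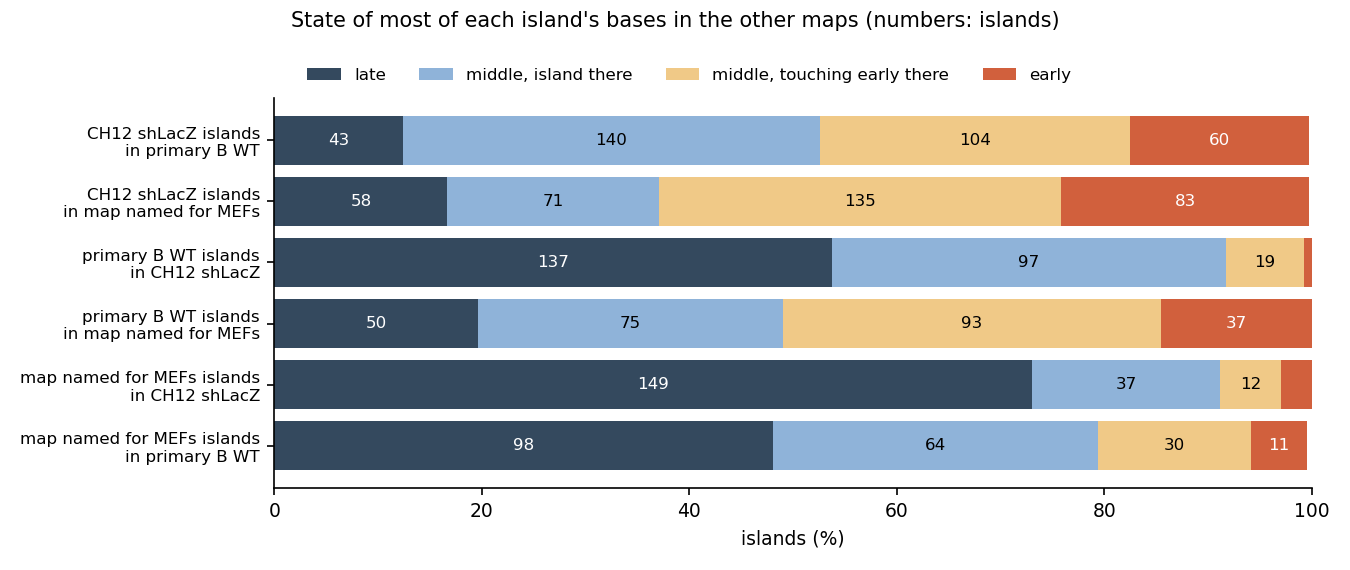
Islands of each map by the state that most of their bases had in each other map, as a percentage of the islands of that map, with numbers of islands in the bars. Middle is divided into islands of the other map and middle domains touching an early domain there. The late part was smallest for CH12 islands (43 and 58 islands) and largest for islands of the MEF map looked up in CH12 (149 of 204).

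An island that stayed middle was not always an island elsewhere. Of the 245 CH12 islands mostly middle in primary B cells, 140 lay in an island there too and 104 in a middle domain that touched early DNA. For the MEF map the balance was the other way, with 71 in islands and 135 touching early DNA. Whole switches of state were fewer. In CH12 25 islands were wholly early in the MEF map and 10 in primary B cells, whereas 50 and 33 were wholly late.

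Islands with 0 protein-coding starts were mostly late elsewhere more often than islands with 5 or more. Islands between these groups are not given here. In CH12, 21 of the 36 islands with 0 protein-coding starts (58.3%, interval 42.2 to 72.9) were mostly late in primary B cells, against 2 of the 166 with 5 or more (1.20%, 0.331 to 4.29). Looked up in the MEF map the shares were 63.9% and 3.01%. For islands of primary B cells they were 73.7% and 37.2% in CH12 and 63.2% and 8.26% in the MEF map, and for islands of the MEF map 92.9% and 55% in CH12 and 85.7% and 21.2% in primary B cells. Since islands with 0 starts were shorter, the same was counted among islands of 300 to 1000 kb alone. There 7 of 11 CH12 islands with 0 starts were mostly late in primary B cells against 0 of 128 with 5 or more, and in the MEF map 7 of 11 against 5 of 128. For primary B islands the shares were 7 of 11 against 7 of 76 in the MEF map. In CH12 they were 7 of 11 (63.6%, interval 35.4 to 84.8) against 26 of 76 (34.2%, 24.5 to 45.4), with intervals that overlapped. For islands of the MEF map, 11 of 12 were late against 16 of 37 in CH12, and 11 of 12 against 7 of 37 in primary B cells.

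At 50% overlap of both members, 84 islands matched between the B cell maps, 24.1% of CH12 islands and 32.9% of primary B islands. CH12 and the MEF map shared 29 (8.33% and 14.2%), and primary B cells and the MEF map 47 (18.4% and 23.0%). In all 3 maps 15 islands matched, against 2 at 80% overlap and 57 at any overlap. Match rates of other middle domains are not given here, so low sharing is not shown to be particular to islands. The 15 lay on 12 chromosomes and their common stretches measured 320 to 800 kb. Each held at least 1 protein-coding start, 91 in all or 10.5 per Mb. Of these 91 genes 49.5% (interval 39.4 to 59.5) had a CpG-rich upstream stretch.

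The 5 shared islands with most gene starts mixed housekeeping, developmental and tissue-restricted genes. The one at chr8:18540001-19140000 (common stretch, 11 starts) held Mcph1 (microcephalin), the angiopoietin gene Angpt2 and 6 beta-defensin genes. At chr14:41560001-42040000 (9 starts) lay Mat1a, Mbl1 and the surfactant protein genes Sftpa1 and Sftpd. Rps7, Rnaseh1 and Colec11 shared the stretch chr12:29080001-29760000 (8 starts). The stretch chr5:28140001-28800000 (8 starts) held the developmental regulators Shh and En2 beside Insig1, a regulator of sterol synthesis, and Rbm33. At chr12:65880001-66400000 (8 starts) lay the DNA repair gene Fancm and the splicing gene Prpf39. Cblb, a ubiquitin ligase of lymphocyte signalling, and Alcam, an adhesion molecule, were the 2 starts of chr16:51880001-52660000, and Mcm5 lay with the haem oxygenase gene Hmox1 at chr8:77300001-77920000.

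The longest island of CH12, chr3:34960001-37880000 (2920 kb), held 24 gene starts, including the cytokine genes Il2 and Il21, the growth factor gene Fgf2 and the cyclin gene Ccna2. Of its bases 71.9% were middle and 18.5% early in primary B cells, where Il2, Il21 and Fgf2 started in early DNA. In the MEF map 46.6% were early. The next in length were chr9:102420001-104420000 (2000 kb) with Topbp1, Trf and Cdv3, and chr7:124260001-126240000 (1980 kb) with Rps15a and Smg1. Neither had any late base in the other maps, and 48.0% and 47.5% of their bases were early in the MEF map.

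The longest island of primary B cells contained Rif1 itself, the gene whose loss the series studied. It spanned chr2:51380001-53840000 (2460 kb) and 13 gene starts, among them Neb, Stam2 and Cacnb4. Rif1 (chr2:51928357-51977903, plus strand) started in early DNA in the MEF map and in a middle domain between early and late in CH12. The second, chr7:34500001-36820000 (2320 kb), held 33 starts, including the gene Cebpa of a myeloid and adipocyte transcription factor, Gpi1 and Pepd. The third, chr5:38180001-40320000 (2140 kb), held Msx1 and Wdr1, and 77.6% of its bases were late in CH12.

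In the MEF map the longest island was chr5:43380001-46420000 (3040 kb), with Cd38, Bst1, Prom1 and Ncapg. It was 59.9% late in CH12 and 50.7% middle in primary B cells, although Cd38 itself started in early DNA in both. The next, chr5:15160001-17960000 (2800 kb), held Hgf, Sema3c, Cd36 and Cacna2d1 and was 75% late in CH12 and 73.6% late in primary B cells. The third, chr16:76100001-78720000 (2620 kb), held Nrip1, Usp25 and Cxadr and was 85.5% late in CH12.

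Several islands with most genes were clusters of gene families. In CH12 the island chr13:20580001-22220000 held 55 starts, among them 23 replication-dependent histone genes of the Hist1 cluster, 13 olfactory receptors and Trim27, and was at least 82.9% middle in both other maps. The island chr7:110840001-111700000 (45 starts) held the beta-globin genes Hbb-b1, Hbb-b2 and Hbb-y among 25 olfactory receptors and 11 Trim entries (Trim30b is entered more than once). It was wholly late in the MEF map and 46.5% early in primary B cells. At chr13:67000001-68040000 (34 starts) 23 of the starts were zinc finger entries, some of which repeat a gene. The MEF map called an overlapping island at chr13:67140001-68020000 (30 starts), wholly middle in CH12. In primary B cells the 3 richest were a vomeronasal cluster at chr7:22080001-23920000 (44 starts, 21 of them Vmn1r genes), a cluster of predicted genes at chr14:5140001-7200000 (40 starts, 39 of them of the Gm series) and a mixed zinc finger and vomeronasal cluster at chr17:20960001-22680000 (36 starts, 16 and 8 of them). The first of these was wholly middle in the MEF map. The remaining islands of this kind in the MEF map were a cluster of predicted genes at chr14:3300001-4820000 (32 starts, 31 of the Gm series) and chr7:5920001-7140000 (29 starts), with the imprinted genes Peg3, Zim1 and Usp29 beside 10 zinc finger genes.

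Other islands stood out for being early elsewhere. The CH12 island chr16:12980001-14600000 with Myh11, Abcc1 and Ercc4 (20 starts) was 93.8% early in the MEF map and 37.0% early in primary B cells. The CH12 island chr10:68440001-69860000 with Cdk1, a cell cycle kinase, and Ank3 was wholly early in the MEF map and 84.5% middle in primary B cells. In primary B cells the island chr4:54980001-56320000, with the pluripotency-associated factor gene Klf4 and Rad23b as its 2 starts, was 94.0% early in the MEF map and 82.1% late in CH12. The island chr13:5400001-7000000 with Klf6 and Pfkp was 75% early in the MEF map, and chr4:97140001-99080000 with Nfia and Usp1 was 60.8% early there and wholly late in CH12. In the MEF map chr17:49400001-50900000 with Rftn1 and Plcl2, both used in B cell receptor signalling, was 60% early in primary B cells and 57.3% early in CH12. The island chr5:8000001-9180000 with Dbf4, the activator of the Cdc7 kinase, and the transporter genes Abcb1a and Abcb1b was 61.0% early in primary B cells. The island chr4:144160001-145640000 with the lymphocyte receptor genes Tnfrsf1b and Tnfrsf8 was 41.9% early in primary B cells and 12.2% in CH12.

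At the other extreme, 21 CH12 islands (6.03%), 24 islands of primary B cells (9.41%) and 71 of the MEF map (34.8%, interval 28.6 to 41.6) were wholly late in both other maps. The matching share of all middle domains is not given here, so the contrast between maps is not shown to be particular to islands. Among all middle domains of the MEF map, 52.7% were mostly late by the CH12 map and 27.8% by that of primary B cells. For all CH12 middle domains the late shares were 5.31% (primary B cells) and 7.47% (MEF map). For those of primary B cells they were 36.4% (CH12) and 10.1% (MEF map). The wholly late islands of the B cell maps were small, with medians of 240 and 220 kb and none over 1000 kb. Of them, 12 of 21 and 6 of 24 held 0 protein-coding starts. CH12 examples, chosen after their values were seen, were an island with Etv1 and one with Cdh12. In primary B cells they included Casp1, Casp4 and Casp12, the inflammatory caspase cluster, in 1 island. The median in the MEF map was 360 kb and 7 exceeded 1000 kb. The longest of these held the semaphorin genes Sema3a, Sema3d and Sema3e (2180 kb), the axon guidance gene Slit2 (1780 kb) and Nr2f2, a regulator of mesenchymal and vascular development (1480 kb). Of the mesenchymal list, Bmp2 and Cdh2 started in islands of the MEF map that were wholly late in both other maps. Hgf and Meox2 started in MEF map islands outside this set, though both genes started in late DNA in both B cell maps. These 4 of 84 genes (4.76%) were near the share of all genes in islands of the MEF map, 4.79%.

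The limit on unknown bases decided few cases. Islands that were kept held at most 45.1%, 35.7% and 35.7% unknown bases, whereas the 4 middle domains left out held from 62.5% to 100%, and 1 stretch of chromosome 7 starting at 39360001 was left out in both CH12 and the MEF map. The depth of the libraries is not given by the maps, which hold only a state per domain.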

How the data were processed

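Repli-seq measures RT by sequencing newly made, BrdU-labelled DNA from cells sorted by their stage of S phase, here early or late. The deposited files analysed here are segmentations of the genome, 1 per condition, in which the last column is a state number of a 3-state hidden Markov model: a code with no unit, entered as other. Per the methods, the authors trimmed reads, kept unique alignments to mm9, merged replicates, removed duplicates, took log2 early over late ratios in 20 kb windows, smoothed them by loess over 300 kb and segmented them with hmm_bigwigs. The submitters' processing notes name Trim Galore 0.6.5, BWA 0.7.17, SAMtools 1.9, deepTools and bedtools 2.29.2. For the MEF map the handling of the reads is not given in the sources used here. The state numbers differ between maps, and gene density was used to tell early from late ones. In the B cell maps smoothing limits what can be resolved below 300 kb.

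From these files middle domains between late domains were found with Python 3.11.15 (pandas 2.3.3, scipy 1.17.1) and set against the mm9 (NCBIM37) sequence and the GENCODE M1 annotation of the same build, in which some genes are entered more than once. Gene starts were placed in 20 kb bins. An upstream stretch was the 250 bases before a gene start. Shares have Wilson, densities exact Poisson and medians order-statistic intervals. The functions were tested on simulated domains with known islands. The named islands were the 3 longest, the 3 with most gene starts and the 3 with most bases early in another map, per map, and the 5 shared islands with most starts, with exceptions stated. Of the gene lists fixed for this work all 8 are reported. The members and lists were chosen with earlier results of these data known. The alternatives covered the length limit, unknown bases, chromosome X, gene types, receptors, edges, windows, the CG limit and the overlap required. The other libraries of the series were not used here. Some genes are not reported here.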

Additional observations from a re-analysis of the deposited data

How the results depend on the processing

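The order of islands over flanking late domains held in all 3 maps under the alternatives run for it: windows, boundaries, gene types and receptors for gene starts, windows and boundaries for GC, and the CG limit and receptors for CpG-rich stretches. Each alternative kept the state names, which gene density had helped to set. Values are given in the order CH12, primary B cells, MEF map. The ratio of gene starts was 1.73, 1.65 and 1.62 with windows of the island's own length. It was 2.11, 2.44 and 2.28 with every gene type and 3.44, 3.95 and 3.18 without bins within 100 kb of a boundary. Without receptors it was 3.33, 3.52 and 3.32. The CpG-rich share of islands exceeded that of flanking late domains by 25.4, 22.6 and 18.9 percentage points, and by 17.7, 16.0 and 12.7 at a limit of 0.75. Without receptors the differences were 22.6, 22.8 and 15.4 points. Islands with a gene start reached 96.3%, 97.3% and 93.6% with every gene type. Any overlap with a gene body gave 93.4% in CH12 and 91.2% in the MEF map, and islands of at least 300 kb 95.9% and 92.6%.

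Of island bases 12.1% of CH12 were late in the MEF map (8.34% without 100 kb at the edges, 16.7% of islands by majority). For primary B islands, bases late in CH12 went from 52.1% to 41.2% and middle from 45.1% to 55.0% without the edges, and bases late in the MEF map from 17.3% to 13.1%. Late bases in CH12 were 66.5% for islands of the MEF map, and 73.0% of islands by majority. The number of matched islands moved with the overlap asked for: between the B cell maps 19 at 80% and 145 at any overlap, between CH12 and the MEF map 10 and 76, between primary B cells and the MEF map 11 and 88, and in all 3 maps 2 and 57. The cause of these moves was not tested, beyond the construction of each alternative. Counts and median lengths of islands stayed within 1.5 times or within their intervals, with chromosome X included or not.

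Without the island richest in each family, olfactory receptor shares were 2.59%, 0.455% and 1.10%, and the vomeronasal share in primary B cells was 16.3%. These alternatives, the one on microRNA genes and the one on islands of 300 to 1000 kb were chosen after seeing the data. The depth of the maps is unknown. No paired analysis was possible because the replicates were merged by the authors into 1 map per condition, and leaving out a replicate was not possible for the same reason.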
